A study of Arabidopsis thaliana with 42 samples.

Results

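Transcript levels of 43 nuclear genes for light-harvesting antenna proteins and photosystem subunits were examined in Arabidopsis leaves 24 h after infiltration with a bacterial pathogen. The 43 genes were taken by locus identifier and are 43 of the 24843 loci in the table of read counts per gene. They comprise 14 LHCB genes for the antenna of photosystem II, 6 LHCA genes for the antenna of photosystem I, 12 PSA genes (PSAD to PSAO) for photosystem I and 11 PSB genes (PSBO to PSBY) for photosystem II. The study asked how mutants of calmodulin-like and calmodulin-binding protein genes respond to Pseudomonas syringae pv. maculicola ES4326, called Pma here. The 42 libraries form 14 groups of 3, made by 7 genotypes in the Col-0 background and 2 treatments. Besides wild type there were sid2, wrky70, cml46 cml47, cbp60a, chp60g sard1 and the triple mutant cbp60a cbp60g sard1, with chp60g spelled as in the sample labels. The mutant alleles are not given in the sources used here. Plants of all groups were 30 days old and grew at 22 °C and 75% relative humidity with 12 h of light. Leaves numbered 6 to 8 received 5 mM magnesium sulfate (mock) or Pma in the same solution at an optical density (OD600) of 0.0002. Each of 3 independent experiments gave 1 library of 2 leaves per group, and the experiment is the replicate throughout.

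Antenna proteins bind chlorophyll and carotenoids and pass the energy of absorbed light to the reaction centres of photosystems I and II, where charge is separated. The reaction centre proteins themselves are mostly encoded in the chloroplast genome, whereas the antenna and many peripheral subunits are encoded in the nucleus, made in the cytosol and imported. Their mRNAs are among the most abundant of green leaf cells, are raised by light and the circadian clock, and are commonly lower in leaves that mount immune responses. CBP60g and SARD1 are transcription factors that raise ICS1, the salicylic acid synthesis gene that is mutated in sid2. CBP60a is a related protein described as a negative regulator of immunity, CML46 and CML47 are calmodulin-like proteins, and WRKY70 is a transcription factor of salicylic acid signalling.

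Libraries held 919335 to 2691069 counts, with 16494 to 18859 loci detected. Values are 3′ tag counts, given as CPM on the TMM-scaled library size, and levels are not compared between genes. Of the mutated genes, ICS1 in sid2, WRKY70 in wrky70, CML46 in cml46 cml47, CBP60G and SARD1 in chp60g sard1, and these 2 and CBP60A in the triple mutant were called lower than wild type after Pma. CBP60A in cbp60a and CML47 in cml46 cml47 were not called, at -1.18 ± 0.25 (adjusted p = 0.192) and -1.58 ± 0.47 (adjusted p = 0.173) on the log2 scale. ICS1 was at 542 ± 203 CPM (mean ± SD, n = 3) in wild type and 1.94 ± 1.13 CPM in sid2, and SARD1 at 249.9 ± 30.8 and 10.9 ± 9.13 CPM in wild type and chp60g sard1. The leaf markers RBCS1A, RCA and CA1 were detected in every group, with no marker at 0. All 43 genes passed the filter on low counts. Tests came from edgeR's quasi-likelihood fit to all 42 libraries, with experiment as a blocking term, and a gene was called at a Benjamini-Hochberg adjusted p under 0.05 over 15161 genes. Errors of fold changes are SE on the log2 scale.

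After Pma, transcripts of all 43 genes fell in wild type leaves. Together they made up 25.98% ± 1.76 (SD, n = 3) of all counts in mock leaves and 3.00% ± 0.212 in Pma leaves. The 43 of 43 called lower compare with 34% of all genes tested that were called lower in the same comparison. For each of the 43 genes the 3 Pma libraries lay below the 3 mock libraries, as they did for 33.8% of all genes tested. The median log2 fold change of the 43 was -3.47, with a range of -8.98 to -2.48, while the median of all genes tested was -0.02. Of all genes tested, 15.8% were at or below PSBR, the least lowered of the 43. With library totals in place of TMM factors the medians were -3.06 for the 43 and 0.38 for all genes, a distance of -3.44 against -3.45 with TMM factors. These are bulk leaf samples, so fewer cells of a type and less RNA per cell cannot be told apart.

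The summed level of the 14 LHCB genes was 137467 ± 12987 CPM in wild type mock and 10296 ± 2155 CPM in wild type Pma leaves (SD, n = 3). For the 6 LHCA genes these sums were 39285 ± 3141 and 3057 ± 407 CPM. The 12 PSA genes summed to 62487 ± 5745 and 6536 ± 507 CPM, and the 11 PSB genes to 58846 ± 3440.4 and 6189 ± 533 CPM. Both antenna groups thus had the lower Pma-to-mock ratio of summed levels, at log2 -3.76 ± 0.22 for LHCB and -3.69 ± 0.13 for LHCA (mean ± SD over 3 experiments), against -3.26 ± 0.22 for PSA and -3.25 ± 0.15 for PSB. By the median log2 fold change of single genes LHCA and PSB were close, at -3.51 and -3.47, with LHCB at -4.32 and PSA at -3.22. The ratio of summed LHCB to summed PSA level within a library does not depend on library scaling. Its log2 value was 1.08 to 1.26 in the 21 mock libraries of all genotypes and 0.18 to 0.94 in the 21 Pma libraries, without overlap. The log2 ratio of LHCA to PSA was also without overlap, at -0.70 to -0.59 in mock and -1.40 to -0.76 in Pma libraries. In wild type the LHCB to PSA ratio was 1.137 ± 0.01 in mock and 0.64 ± 0.33 in Pma leaves (log2, SD, n = 3), and the ratio was lower with Pma in 3 of 3 experiments in each genotype. For LHCB to PSB the log2 ratio was 1.15 to 1.35 in mock and 0.22 to 1.16 in Pma libraries, which overlap slightly. These sums, medians and ratios over chosen genes are given as a description, with no test.

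**Figure D1:**
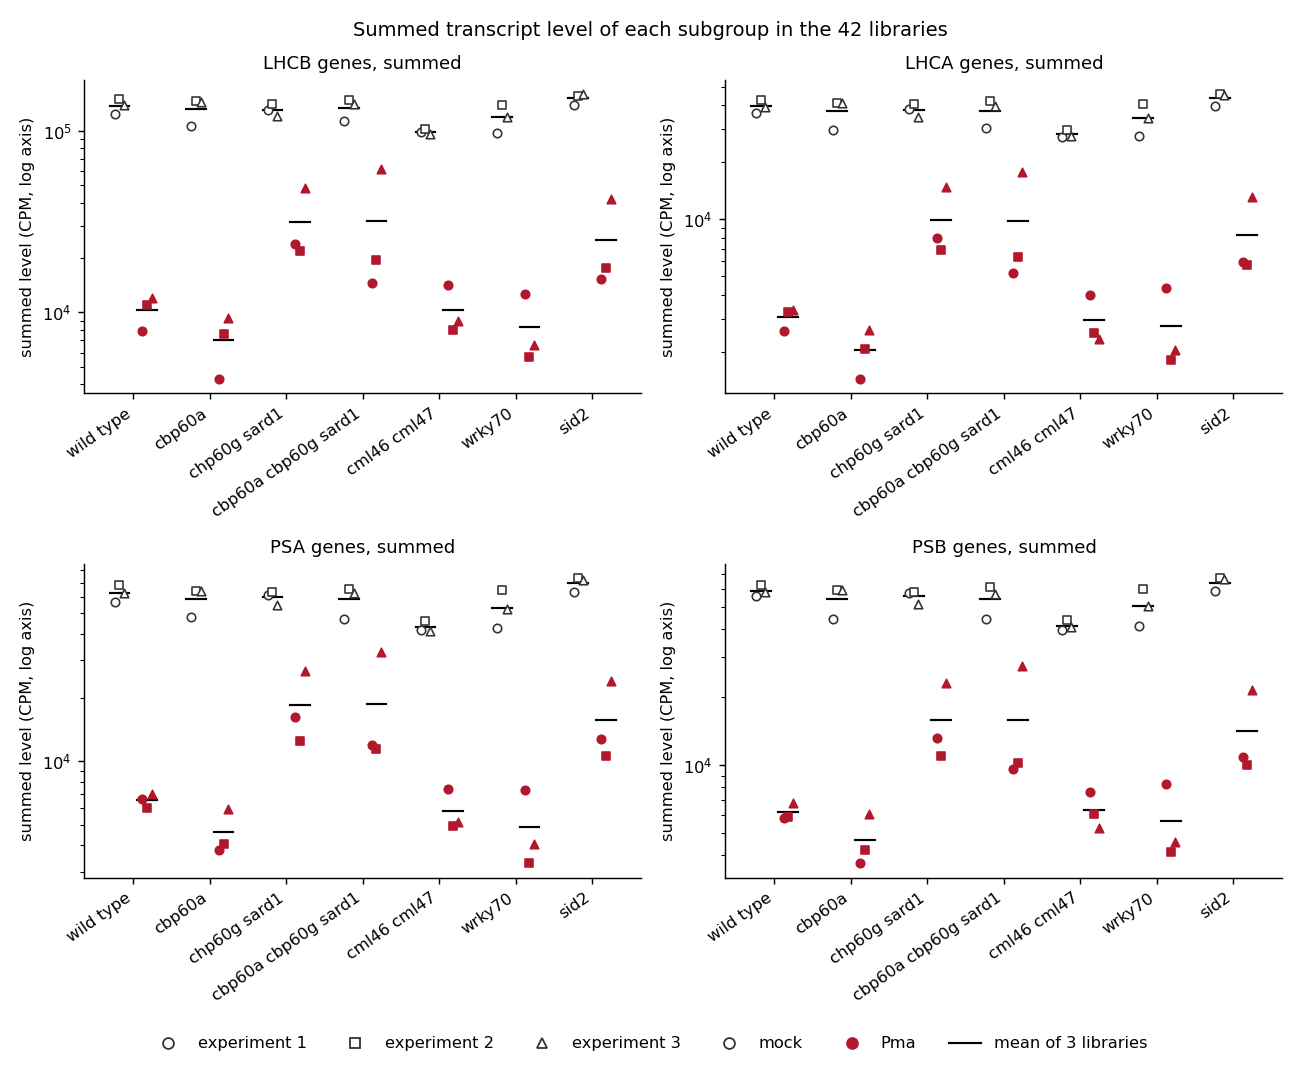
Summed level of the LHCB, LHCA, PSA and PSB genes in each of the 42 libraries (CPM, log axis), by genotype and treatment; each point is a library. The Pma libraries lie below the mock libraries in every genotype, and the Pma libraries of chp60g sard1, the triple mutant and sid2 lie above all those of wild type.

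The LHCB genes held the widest range of responses. LHCB1, LHCB2 and LHCB3 proteins form the trimers of the major antenna of photosystem II, and LHCB4, LHCB5 and LHCB6 are monomeric antennas between those trimers and the core. LHCB2.3 (AT3G27690) was at 2431, 4871 and 3617 CPM in the mock libraries of experiments 1, 2 and 3 and at 6.45, 1.64 and 13.5 CPM in the Pma libraries. The groups were far apart, and the fold change was -8.98 ± 1.16 (SE, adjusted p = 4.84e-08), or 505-fold lower. LHCB1.4 (AT2G34430) was at 9500.4, 9828 and 10505 CPM in the mock libraries of experiments 1, 2 and 3 and at 313, 90.0 and 449.8 CPM in the Pma libraries. Its Pma libraries varied by more than those of most members, the experiment 2 library being the lowest, and its fold change was -5.45 ± 0.86 (SE, adjusted p = 1.6e-06). LHCB1.5 (AT2G34420) was at 23360.4, 27235 and 24158 CPM in the mock libraries of experiments 1, 2 and 3 and at 2929, 5267 and 5401 CPM in the Pma libraries. LHCB1.5 fell by the least among the LHCB genes, with a fold change of -2.50 ± 0.40 (SE, adjusted p = 2.06e-06). LHCB1.4 and LHCB1.5 are divergent neighbours on chromosome 2, at chr2:14524607-14525918 on the plus strand and chr2:14522524-14523568 on the minus strand. LHCB4.1 (AT5G01530) was at 7528, 8080.1 and 8271 CPM in the mock libraries of experiments 1, 2 and 3 and at 874, 673 and 928 CPM in the Pma libraries. The fold change of this monomeric antenna gene was -3.30 ± 0.37 (SE, adjusted p = 4.06e-09), with all Pma libraries below all mock libraries. The trimer genes LHCB1.1, LHCB1.2, LHCB1.3, LHCB2.1, LHCB2.2 and LHCB3 had log2 fold changes of -4.52, -5.29, -4.17, -3.66, -4.79 and -4.002. The monomeric antenna genes LHCB4.2, LHCB5 and LHCB6 had log2 fold changes of -4.41, -4.24 and -4.40. LHCB4.3 was at -4.02 ± 0.45, and its Pma level rests on 16 counts over 3 libraries.

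Among the LHCA genes, LHCA1 to LHCA4 encode the antenna belt of photosystem I, and LHCA5 and LHCA6 encode linkers that join photosystem I to the chloroplast NADH dehydrogenase-like complex. LHCA6 (AT1G19150) was at 206, 206 and 226 CPM in the mock libraries of experiments 1, 2 and 3 and at 0.537, 0 and 1.12 CPM in the Pma libraries. Nearly all of the signal was gone after Pma, with 838 counts in the 3 mock libraries and 3 counts in the 3 Pma libraries. The ratio of the 2 groups was 343, with a 95% interval of 117 to 1670 that covers counting error only (adjusted p = 5.66e-11). LHCA5 (AT1G45474) was at 329.6, 295 and 296 CPM in the mock libraries of experiments 1, 2 and 3 and at 23.1, 40.9 and 52.2 CPM in the Pma libraries. The other linker gene fell by the least in its subgroup, with a fold change of -3.04 ± 0.35 (SE, adjusted p = 5.56e-09). LHCA1 (AT3G54890) was at 11932, 14069 and 13301 CPM in the mock libraries of experiments 1, 2 and 3 and at 548, 673 and 719 CPM in the Pma libraries. Its fold change was -4.35 ± 0.49 (SE, adjusted p = 3.69e-09), the largest change of the 4 belt genes. LHCA4 (AT3G47470) was at 9899, 12310.4 and 11023 CPM in the mock libraries of experiments 1, 2 and 3 and at 781, 1219 and 1203 CPM in the Pma libraries, with a fold change of -3.40 ± 0.40 (SE, adjusted p = 1.06e-08). LHCA2 and LHCA3 had log2 fold changes of -3.28 and -3.63, so that the 4 belt genes lay within a range of -3.28 to -4.35.

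The PSA genes fell within a narrower range. PSAN and PSAF lie on the lumenal side, where plastocyanin delivers electrons, and PSAD and PSAE form the stromal docking site of ferredoxin. PSAG and PSAK are peripheral membrane subunits, and PSAH, PSAL and PSAO lie where the antenna of photosystem II docks on photosystem I. PSAN (AT5G64040) was at 4728, 6614 and 6087 CPM in the mock libraries of experiments 1, 2 and 3 and at 173, 187 and 191 CPM in the Pma libraries. PSAN had the largest change among the PSA genes, at -4.97 ± 0.49 (SE, adjusted p = 3.98e-10) or 31.4-fold lower. PSAG (AT1G55670) was at 5654, 6443 and 5948 CPM in the mock libraries of experiments 1, 2 and 3 and at 488, 373 and 462 CPM in the Pma libraries. Its fold change was -3.79 ± 0.41 (SE, adjusted p = 1.53e-09). PSAL (AT4G12800) was at 6008, 6903 and 6279 CPM in the mock libraries of experiments 1, 2 and 3 and at 844, 740.4 and 804 CPM in the Pma libraries. PSAE1 (AT4G28750) was at 7317, 8518 and 8283 CPM in the mock libraries of experiments 1, 2 and 3 and at 1123, 1023 and 1134 CPM in the Pma libraries. PSAL and PSAE1 were least lowered on average over the genotypes, with wild type fold changes of -3.01 ± 0.37 (SE, adjusted p = 1.62e-08) and -2.88 ± 0.35 (SE, adjusted p = 1.58e-08). In none of these 4 genes did a Pma library reach the level of a mock library. PSAF, PSAK and PSAO had log2 fold changes of -3.21, -3.24 and -3.25, and the gene pairs PSAD1 and PSAD2, PSAE1 and PSAE2, and PSAH1 and PSAH2 had -2.94 and -3.44, -2.88 and -3.07, and -2.89 and -3.41.

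The PSB genes include the lumenal oxygen-evolving subunits PSBO, PSBP and PSBQ. They also include PSBR, which helps PSBP to bind, PSBS, the protein needed for rapid thermal dissipation of excess light energy, and small membrane or lumenal subunits. PSBS (AT1G44575) was at 1583, 1619 and 1614 CPM in the mock libraries of experiments 1, 2 and 3 and at 74.7, 57.3 and 80.8 CPM in the Pma libraries. The mock libraries differed by little, and the fold change was -4.52 ± 0.44 (SE, adjusted p = 2.86e-10), or 22.9-fold lower. PSBP1 (AT1G06680) was at 9895, 10954 and 10393 CPM in the mock libraries of experiments 1, 2 and 3 and at 446, 549.8 and 623 CPM in the Pma libraries. Its fold change was -4.29 ± 0.48 (SE, adjusted p = 3.67e-09). PSBW (AT2G30570) was at 7345, 8133 and 7681 CPM in the mock libraries of experiments 1, 2 and 3 and at 892, 1002 and 1109 CPM in the Pma libraries. PSBR (AT1G79040) was at 9718, 11222 and 9654 CPM in the mock libraries of experiments 1, 2 and 3 and at 1760.0, 1847 and 1899.8 CPM in the Pma libraries. PSBR had the smallest change of all 43 genes at -2.48 ± 0.32 (SE, adjusted p = 4.53e-08), and PSBW, which helps to hold antenna and core together, changed by -2.96 ± 0.34 (SE, adjusted p = 6.71e-09). All Pma libraries of these 4 genes lay below all mock libraries. The pairs PSBO1 and PSBO2, and PSBQ1 and PSBQ2 had log2 fold changes of -3.25 and -3.47, and of -3.82 and -3.16, and the small subunits PSBTN, PSBX and PSBY of -3.98, -3.47 and -3.44.

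**Figure D2:**
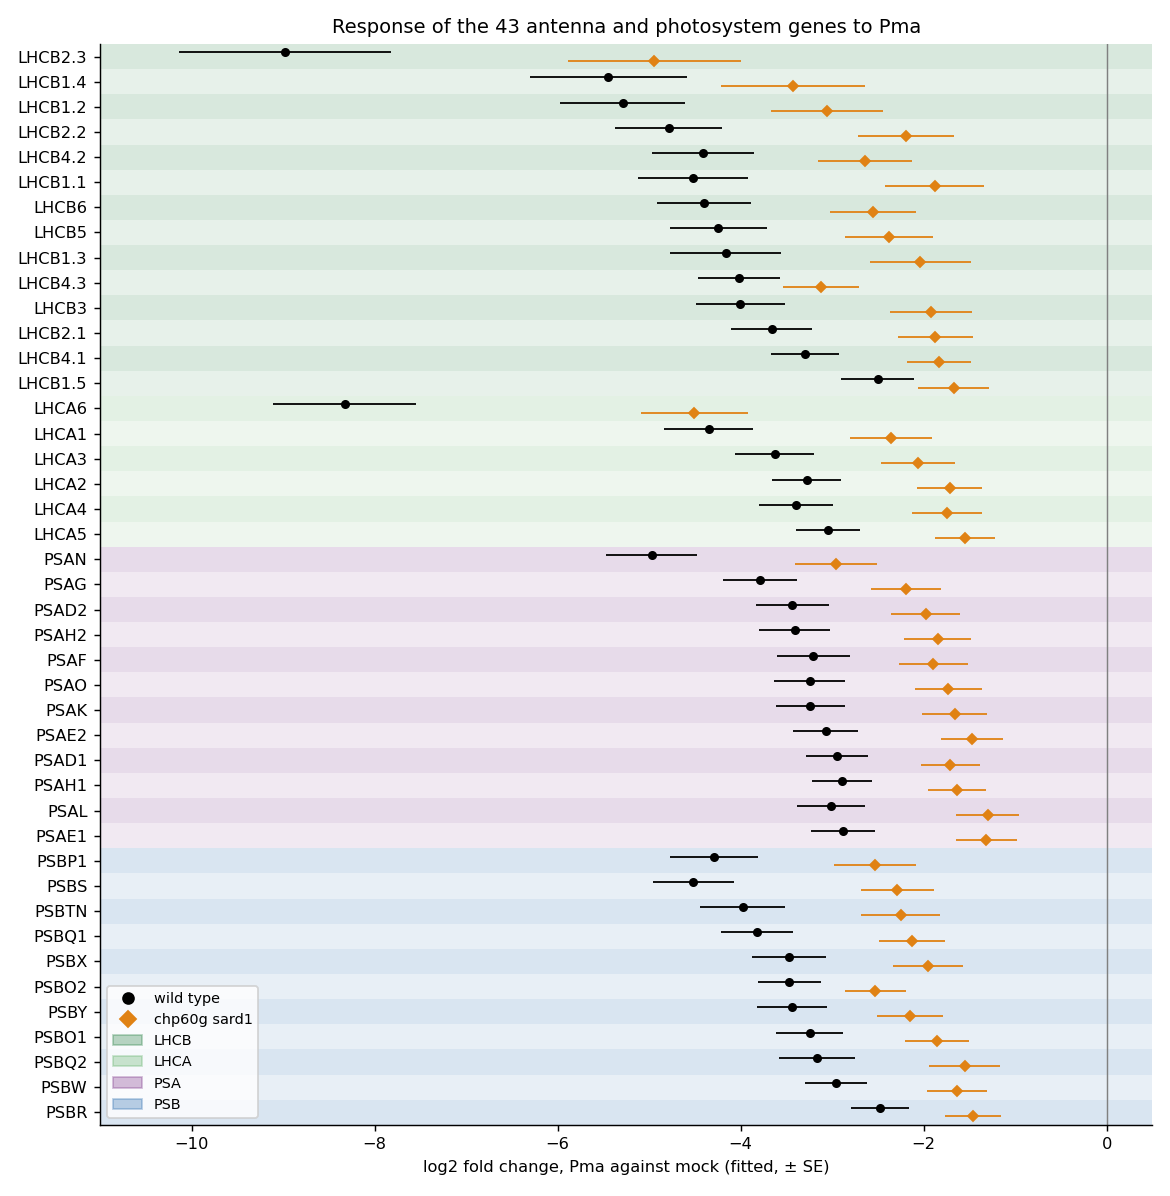
Fitted log2 fold change of Pma against mock for each of the 43 genes in wild type (circles) and chp60g sard1 (diamonds), with SE bars, by subgroup. All values are below 0, and those of chp60g sard1 are nearer to 0 for each of the 43 genes; the wild type value of LHCA6 rests on 3 counts in the Pma libraries.

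Promoters of 4 of these genes are shown, since G-box (CACGTG), I-box (GATAAG) and GLK-type (CCAATC) motifs are known from light-regulated and chloroplast gene promoters. The 250 bases before the annotated gene start were read from the RefSeq assembly TAIR10.1, in which all 43 loci were found. LHCB2.3, which holds a G-box, and LHCA6, which holds none, had the largest average responses. LHCB4.1 and LHCA4 hold a G-box like LHCB2.3 but fell by less. Capitals mark the motifs on either strand, CCAATC also as its reverse complement GATTGG.
LHCB2.3 (chr3:10255656-10255905, plus strand): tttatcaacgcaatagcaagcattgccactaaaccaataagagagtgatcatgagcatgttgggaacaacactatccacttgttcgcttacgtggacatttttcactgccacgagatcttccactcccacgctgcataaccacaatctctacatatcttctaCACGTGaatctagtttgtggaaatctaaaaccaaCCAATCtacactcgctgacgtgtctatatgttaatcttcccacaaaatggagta
LHCB4.1 (chr5:208616-208865, plus strand): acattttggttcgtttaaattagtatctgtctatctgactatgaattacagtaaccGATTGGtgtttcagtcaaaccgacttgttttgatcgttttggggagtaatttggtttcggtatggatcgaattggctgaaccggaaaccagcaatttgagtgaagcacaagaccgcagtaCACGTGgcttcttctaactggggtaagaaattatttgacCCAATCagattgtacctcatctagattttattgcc
LHCA4 (chr3:17495034-17495283, minus strand): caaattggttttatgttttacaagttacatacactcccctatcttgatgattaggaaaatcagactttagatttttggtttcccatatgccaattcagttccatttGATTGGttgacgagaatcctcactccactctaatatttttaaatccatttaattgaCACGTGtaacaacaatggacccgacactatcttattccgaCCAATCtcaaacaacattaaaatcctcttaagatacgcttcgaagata
LHCA6 (chr1:6612380-6612629, plus strand): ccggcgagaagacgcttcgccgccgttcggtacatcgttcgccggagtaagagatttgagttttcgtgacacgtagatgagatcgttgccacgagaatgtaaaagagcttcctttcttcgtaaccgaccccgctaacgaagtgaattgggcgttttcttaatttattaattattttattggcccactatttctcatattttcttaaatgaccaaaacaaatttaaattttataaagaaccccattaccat

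The G-box nearest to the gene start was 88 bases before it in LHCB2.3, 74 in LHCB4.1 and 88 in LHCA4. The window of LHCA6 held none of the 3 motifs. Over all 43 promoters a G-box was found in 9 (20.9%), against 6.88% of 24691 promoters of the same length, and an I-box in 9 (20.9%), against 12.3%. The CCAATC motif was found in 11 (25.6%), against 10.3% of all promoters. It was in 7 of 14 LHCB, 3 of 6 LHCA, 0 of 12 PSA and 1 of 11 PSB promoters. LHCB2.3, with a G-box, and LHCA6, with none, had the 2 largest average responses. A match describes letters in this window and not a bound site.

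Several of the genes have close copies or overlap another gene, which limits how far their counts can be assigned. In the last 300 bases of the transcripts, 26 of 261 windows of 40 bases in LHCB1.2 also occur in LHCB1.1 or LHCB1.3, and 60 of 261 windows in LHCB2.2 also occur in LHCB2.1. In the other 41 members no window of their own last 300 bases was shared. LHCB1.1, LHCB1.3 and LHCB2.1 are among these, though they hold the windows named above. Of the 43 genes, 17 overlap another gene of the table, 15 of them on the opposite strand only, and whether counting used the strand is not given in the sources used here. PSAD2 and PSBP1 overlap a gene on the same strand.

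Other nuclear photosynthesis genes, in 4 lists of named genes outside the 43, moved the same way in wild type. Of 13 genes of electron transport and the ATP synthase 12 were lower and 0 higher, with a median log2 fold change of -3.53. FD2, the main leaf ferredoxin, went from 3921 ± 1168 to 204 ± 63.7 CPM (log2 -4.26 ± 0.39, adjusted p = 1.04e-10), and the ATP synthase subunit gene ATPD from 1446 ± 209.9 to 65.7 ± 8.68 CPM (log2 -4.46 ± 0.43, adjusted p = 2.2e-10). ATPC1, for the gamma subunit, went from 1560.1 ± 155 to 111 ± 14.8 CPM (log2 -3.81 ± 0.37, adjusted p = 2.42e-10). Of 22 chlorophyll synthesis genes 21 were lower and 0 higher, with a median of -4.08. CHLG, for the enzyme that adds the phytol tail, went from 174 ± 8.78 to 8.88 ± 2.05 CPM (log2 -4.29 ± 0.37, adjusted p = 2.91e-11), and HEMA1, at the start of the pathway, from 787 ± 254 to 92.3 ± 29.2 CPM (log2 -3.09 ± 0.27, adjusted p = 4.65e-11). CHLD, of the magnesium chelatase, went from 266 ± 55.6 to 33.4 ± 5.63 CPM (log2 -2.99 ± 0.28, adjusted p = 1.17e-10). Of 15 genes for protein insertion and assembly 14 were lower and 0 higher, with a median of -3.82. HCF136, a photosystem II assembly factor, went from 218 ± 29.02 to 13.1 ± 1.37 CPM (log2 -4.05 ± 0.32, adjusted p = 9.88e-12), PAM68, another assembly factor, from 55.4 ± 18.4 to 1.46 ± 0.290 CPM (log2 -5.19 ± 0.50, adjusted p = 1.05e-10), and OHP2, a light-harvesting-like protein, from 229 ± 21.9 to 44.98 ± 12.0 CPM (log2 -2.38 ± 0.23, adjusted p = 3.33e-10). In these 3 lists 1 gene each did not pass. PGRL1B, of cyclic electron flow, was at 49.5 ± 2.07 and then 52.3 ± 10.8 CPM (log2 0.05 ± 0.22, adjusted p = 0.838), GSA1, an aminotransferase early in the pathway, at 79.7 ± 16.5 and then 81.6 ± 17.1 CPM (log2 0.03 ± 0.18, adjusted p = 0.885), and CPFTSY at 37.9 ± 6.33 and then 45.1 ± 6.40 CPM (log2 0.22 ± 0.26, adjusted p = 0.469).

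Regulators and kinases were the more mixed list. Of 12 genes, of which 11 were tested, 8 were lower and 1 higher, with a median of -2.15. STN8, a kinase of photosystem II core proteins, went from 128 ± 18.7 to 5.75 ± 0.152 CPM (log2 -4.46 ± 0.49, adjusted p = 2.46e-09). GNC, a GATA factor, went from 86.0 ± 36.3 to 2.28 ± 3.03 CPM (log2 -5.51 ± 0.67, adjusted p = 1.22e-08), and GLK2 and GLK1, transcription factors of chloroplast development, from 299 ± 81.4 to 22.5 ± 10.6 CPM (log2 -3.77 ± 0.51, adjusted p = 9.43e-08) and from 240.1 ± 83.9 to 53.6 ± 13.0 CPM (log2 -2.15 ± 0.33, adjusted p = 1.11e-06). GUN1, a plastid signalling protein, was the gene that rose, from 102 ± 15.3 to 146 ± 25.7 CPM (log2 0.51 ± 0.16, adjusted p = 0.00689). Leaf and cell type markers were read beside these genes, and not all of them fell. In wild type the summed leaf markers were at 28063 to 31309.9 CPM in mock and 1554 to 1947 CPM in Pma libraries, with 3 of 3 lower. The 5 epidermis markers were at 1624 to 1709 and 47.7 to 81.8 CPM, with 4 of 4 tested lower and PDF1 at 0 after Pma. The 6 phloem markers were at 598 to 737 and 563 to 588 CPM with 1 lower, and the 6 guard cell markers at 102 to 117 and 112 to 149.7 CPM with 2 lower and 1 higher of 4 tested. Their part in the fall of the 43 genes was not tested.

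All 43 genes were lower after Pma in each of the 6 mutants too, but the size of the fall differed. The median log2 fold change was -3.96 in cbp60a, where 33.5% of all genes tested were called lower, and -3.53 in wrky70 (31.4%). It was -3.12 in cml46 cml47 (30.2%) and -2.51 in sid2 (31.5%). In chp60g sard1 it was -1.95 (29.6%) and in the triple mutant -1.97 (30.5%). In no mutant did a Pma library of any of the 43 genes reach a mock library, as held for 32.6% of all genes tested in cbp60a, 31.1% in wrky70, 29.6% in cml46 cml47, 30.7% in sid2, 29.2% in chp60g sard1 and 28.4% in the triple mutant. The 43 genes went from 25.7% ± 1.82 to 7.11% ± 2.19 of all counts in chp60g sard1 and from 25.8% ± 2.28 to 6.92% ± 3.81 in the triple mutant, and from 28.04% ± 1.60 to 5.97% ± 2.56 in sid2. The order of the 43 responses was close to that of wild type in each mutant, with Pearson correlations of 0.926 to 0.956 and Spearman correlations of 0.879 to 0.952 over 43 genes, given as a description. The fall was nearer to 0 than in wild type for 43 of 43 genes in sid2, cml46 cml47, chp60g sard1 and the triple mutant, for 22 in wrky70 and for 3 in cbp60a. The LHCB median was the lowest of the subgroup medians in each genotype, from -5.01 in cbp60a to -2.28 in chp60g sard1. For PSA the median ranged from -3.60 in cbp60a to -1.72 in chp60g sard1 and in the triple mutant. The PSB median was below the LHCA median in sid2 (-2.49 and -2.34), chp60g sard1 (-2.13 and -1.90) and the triple mutant (-1.95 and -1.93). In the other genotypes the LHCA median was the lower.

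The fall was uneven between experiments in the mutants. In wild type the log2 ratio of the summed level of all 43 genes, Pma to mock, was -3.57, -3.63 and -3.36 in experiments 1, 2 and 3. It was -2.23, -2.54 and -1.21 in chp60g sard1, -2.51, -2.74 and -1.11 in the triple mutant, and -2.75, -2.96 and -1.77 in sid2. Experiment 3 thus had the smallest fall in these 3 mutants. In cml46 cml47 it was -2.65, -3.37 and -3.24 and in wrky70 -2.68, -4.36 and -3.89, where experiment 1 had the smallest fall, and in cbp60a -4.11, -4.11 and -3.69. PR1, a marker of the salicylic acid response, was at 248, 50.04 and 11.7 CPM in the Pma libraries of chp60g sard1 in experiments 1, 2 and 3, at 469, 85.4 and 10.6 CPM in the triple mutant and at 7341, 4471 and 6929 CPM in wild type. FMO1, needed for systemic resistance, was at 70.6, 59.5 and 37.4 CPM in chp60g sard1, at 267, 878 and 839 CPM in cml46 cml47 and at 832, 2834 and 2758 CPM in wrky70. FMO1 was lowest in the experiment with the smallest fall of the 43 genes in these 3 mutants, as was PR1 in chp60g sard1 and the triple mutant, and in wild type FMO1 was at 874, 874 and 768 CPM. This did not hold for PR1 in cml46 cml47, at 10619, 9289 and 8983 CPM, in wrky70, at 7263, 6063 and 6813 CPM, or in sid2, at 70.7, 22.1 and 56.7 CPM. Nor did it hold for PR1 in wild type, which was lowest in experiment 2. In sid2, FMO1 was at 1131, 1105 and 1369.8 CPM, highest in experiment 3. In the triple mutant FMO1 was also lowest in experiment 3, at 112, 72.2 and 30.4 CPM. So were FMO1 (912, 777 and 593 CPM) and PR1 (9532, 7066 and 6654 CPM) in cbp60a. ICS1 was highest in experiment 3 in wild type, at 392, 462 and 773 CPM. It was highest there too in cbp60a (386, 525 and 858 CPM) and the triple mutant (34.6, 36.5 and 60.8 CPM). ICS1 was lowest in experiment 2 in chp60g sard1 and in experiment 1 in cml46 cml47 and wrky70. The part of these differences in the result was not tested.

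**Figure D3:**
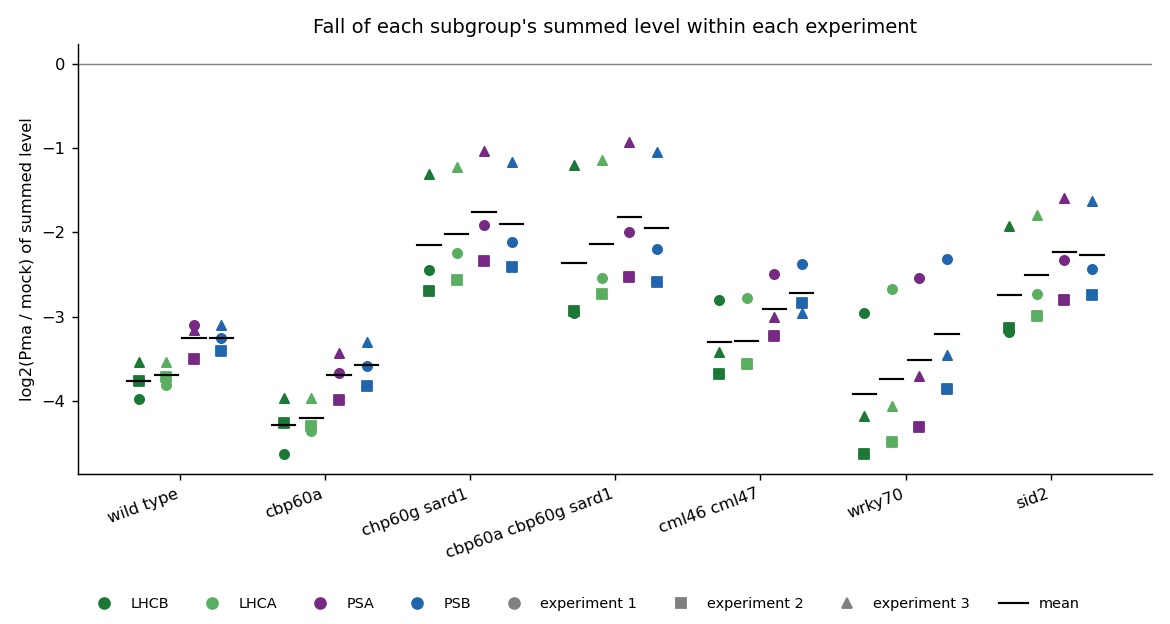
Log2 ratio of Pma to mock of the summed level of each subgroup, by genotype, with a point for each of the 3 experiments. Wild type points lie close together, and in chp60g sard1, the triple mutant and sid2 the point nearest to 0 is that of experiment 3.

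In mock leaves none of the 43 genes was called between any of the 6 mutants and wild type by edgeR, and DESeq2 also called 0. The share of all genes tested that was called was 0.185% for cbp60a, 0.462% for chp60g sard1, 0% for the triple mutant, 5.24% for cml46 cml47, 0.0594% for wrky70 and 0.0132% for sid2. At an unadjusted p under 0.05 there was 1 of the 43 in the triple mutant, LHCB4.3 at -0.92 ± 0.36 (adjusted p = 0.550), 1 in cml46 cml47 and 0 in the other 4. Shares of all genes at this unadjusted threshold are not given here, so these unadjusted counts have no background beside them. The member with the lowest p was LHCA6 in cbp60a (-0.64 ± 0.47, adjusted p = 0.832) and in chp60g sard1 (-0.59 ± 0.47, adjusted p = 0.875), PSBS in wrky70 (-0.51 ± 0.38, adjusted p = 0.791) and LHCB4.3 in sid2 (-0.42 ± 0.35, adjusted p = 1.00). The median log2 difference was -0.22 in wrky70, -0.12 in the triple mutant, -0.11 in cbp60a, -0.07 in chp60g sard1 and 0.14 in sid2.

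Mock leaves of cml46 cml47 had values below wild type for all 43 genes, with a median log2 difference of -0.52 and a range of -0.93 to -0.37, though none passed. Values were also below wild type for 43 of 43 genes in wrky70 and 42 of 43 in cbp60a mock leaves, with medians of -0.22 and -0.11. PSBS had the lowest p and was at 854, 907 and 935 CPM in experiments 1, 2 and 3, against 1583, 1619 and 1614 CPM in wild type. All 3 libraries were below all 3 of wild type, with a difference of -0.84 ± 0.38 (adjusted p = 0.219). For 38 of the 43 genes the 3 cml46 cml47 libraries lay below the 3 wild type libraries, against 11.3% of all genes tested. The summed level of the 43 was 211492 ± 8519.8 CPM in cml46 cml47 and 298085 ± 25177 CPM in wild type mock leaves (SD, n = 3). In a fit of these 2 groups alone 40 of the 43 were called lower. The share of all genes called in that fit is not given here, so this count has no background beside it. With library totals in place of TMM factors the median of the 43 was -0.30 and that of all genes 0.24. Of the 22 chlorophyll synthesis genes 2 were called lower in cml46 cml47 mock leaves, and 0 genes of the other 3 lists. They were HEMA1 and PORA, an oxidoreductase that makes chlorophyllide, at -0.97 ± 0.25 (adjusted p = 0.0197) and -1.84 ± 0.51 (adjusted p = 0.0286). The summed leaf markers were at 18049 to 19099 CPM there, below the wild type mock range, and PR1 was at 319, 1329.7 and 735 CPM against 3.92, 1.46 and 4.70 CPM in wild type. Their part in the result was not tested.

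**Figure D4:**
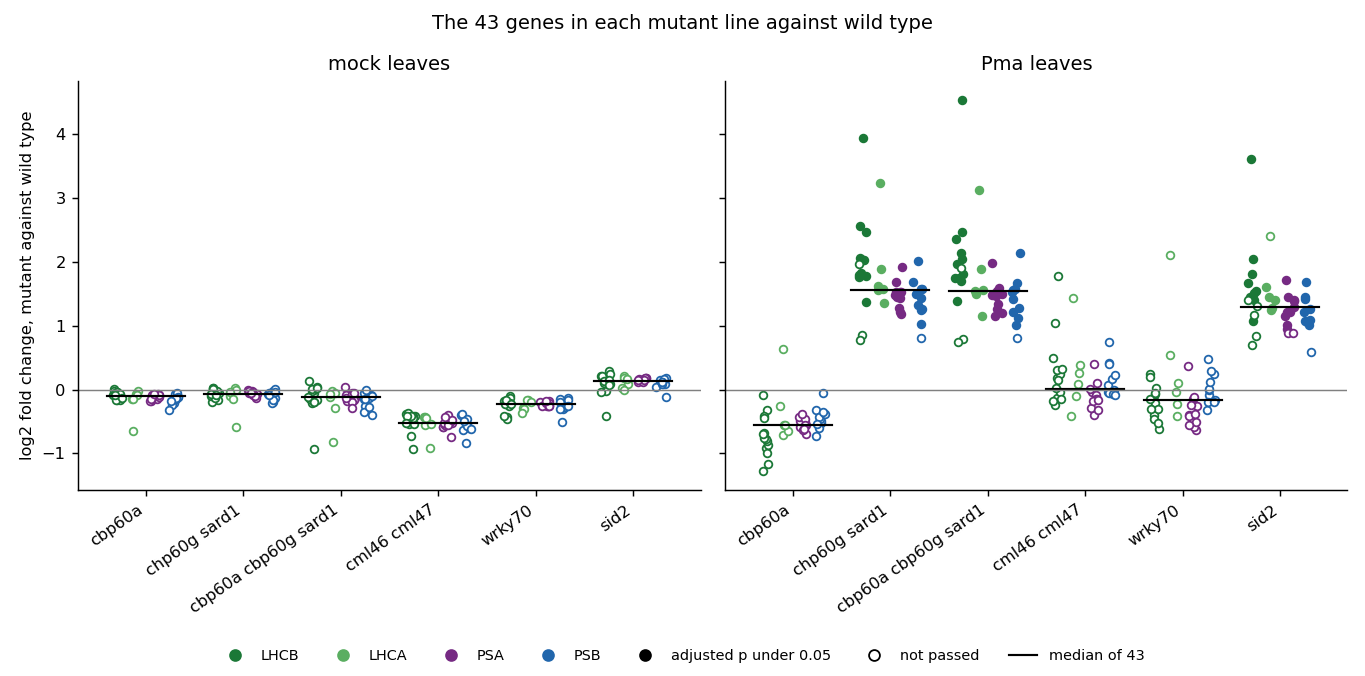
Fitted log2 difference of each of the 43 genes between each mutant and wild type in mock and Pma leaves. Filled points passed at an adjusted p under 0.05 and the bar is the median of the 43, which in Pma leaves is 1.56 in chp60g sard1, 1.54 in the triple mutant and 1.29 in sid2; the values of LHCA6 in Pma leaves rest on 3 counts in wild type.

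After Pma most of the 43 genes were higher in chp60g sard1, in the triple mutant and in sid2 than in wild type. In chp60g sard1 39 of 43 were called higher, against 8.88% of all genes tested, with a median log2 difference of 1.56 and a range of 0.77 to 3.93. In the triple mutant 39 were called higher (7.01% of all genes) with a median of 1.54, and in sid2 34 (8.89% of all genes) with a median of 1.29. The called genes were 11 of 14 LHCB, 6 of 6 LHCA, 12 of 12 PSA and 10 of 11 PSB in chp60g sard1, and these counts were the same in the triple mutant. In sid2 they were 9 of 14 LHCB, 5 of 6 LHCA, 10 of 12 PSA and 10 of 11 PSB. The libraries of the mutant lay above all those of wild type for 41 genes in chp60g sard1 (13.2% of all genes tested), 34 in the triple mutant (9.51%) and 31 in sid2 (14.2%). The 3 comparisons share the wild type libraries.

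PSBS had the lowest p in all 3 mutants. PSBS was at 282, 158 and 449 CPM in chp60g sard1 Pma leaves of experiments 1, 2 and 3, at 246, 149 and 594 CPM in the triple mutant and at 169, 165 and 371 CPM in sid2, against 74.7, 57.3 and 80.8 CPM in wild type. All 9 mutant libraries were above the wild type libraries and experiment 3 gave the highest value in each mutant. The differences were 2.01 ± 0.40 (adjusted p = 0.00081), 2.13 ± 0.40 (adjusted p = 0.000667) and 1.68 ± 0.40 (adjusted p = 0.00431) on the log2 scale. PSAL was at 2347, 1782 and 3753 CPM in chp60g sard1 Pma leaves, at 1681, 1561 and 4245 CPM in the triple mutant and at 1895, 1566 and 3216 CPM in sid2. These too were above the 844, 740.4 and 804 CPM of wild type in every library, with differences of 1.69 ± 0.35 (adjusted p = 0.00121), 1.60 ± 0.35 (adjusted p = 0.00274) and 1.45 ± 0.35 (adjusted p = 0.00473). LHCB2.2 was at 675, 537 and 1699 CPM in chp60g sard1 Pma leaves and at 352, 454 and 2119.8 CPM in the triple mutant, against 123, 159.5 and 183 CPM in wild type. Again no library overlapped, and the differences were 2.56 ± 0.53 (adjusted p = 0.00128) and 2.47 ± 0.53 (adjusted p = 0.00243). LHCB2.3, the gene with the largest fall, was at 39.3, 41.5 and 562 CPM in the triple mutant, above the 6.45, 1.64 and 13.5 CPM of wild type, with a difference of 4.54 ± 1.00 (adjusted p = 0.00298). Without the triple mutant Pma library of experiment 3 this difference was 2.60 (adjusted p = 0.145), that of LHCB2.2 was 1.51 (adjusted p = 0.102) and that of PSAL 1.07 (adjusted p = 0.0851).

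LHCB3 differed by 2.06 ± 0.45 (adjusted p = 0.00210) in chp60g sard1. In sid2, LHCA5 was at 83.6, 92.2 and 127 CPM against 23.1, 40.9 and 52.2 CPM in wild type, a difference of 1.404 ± 0.34 (adjusted p = 0.00471), and PSAE1 was at 2459, 2147 and 4168 CPM against 1123, 1023 and 1134 CPM, a difference of 1.38 ± 0.33 (adjusted p = 0.00493). For both genes the sid2 libraries lay above those of wild type. For LHCA6, with 3 counts in wild type Pma leaves, the ratio to wild type was 10.9 (3.40 to 55.7, 31 counts) in chp60g sard1, 9.67 (2.97 to 49.8, 27 counts) in the triple mutant and 6.31 (1.84 to 33.5, 18 counts) in sid2, the intervals (95%) covering counting error only. LHCB1.4, LHCB1.5, LHCB4.3 and PSBO2 were not called in chp60g sard1, with differences of 1.97 ± 0.74 (adjusted p = 0.0743), 0.85 ± 0.38 (adjusted p = 0.147), 0.77 ± 0.51 (adjusted p = 0.364) and 0.80 ± 0.32 (adjusted p = 0.0959). PSBO1, the paralog of PSBO2, was called in the same mutant, with a difference of 1.33 ± 0.34 (adjusted p = 0.00790). That the 2 paralogs differ from each other was not tested.

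**Figure D5:**
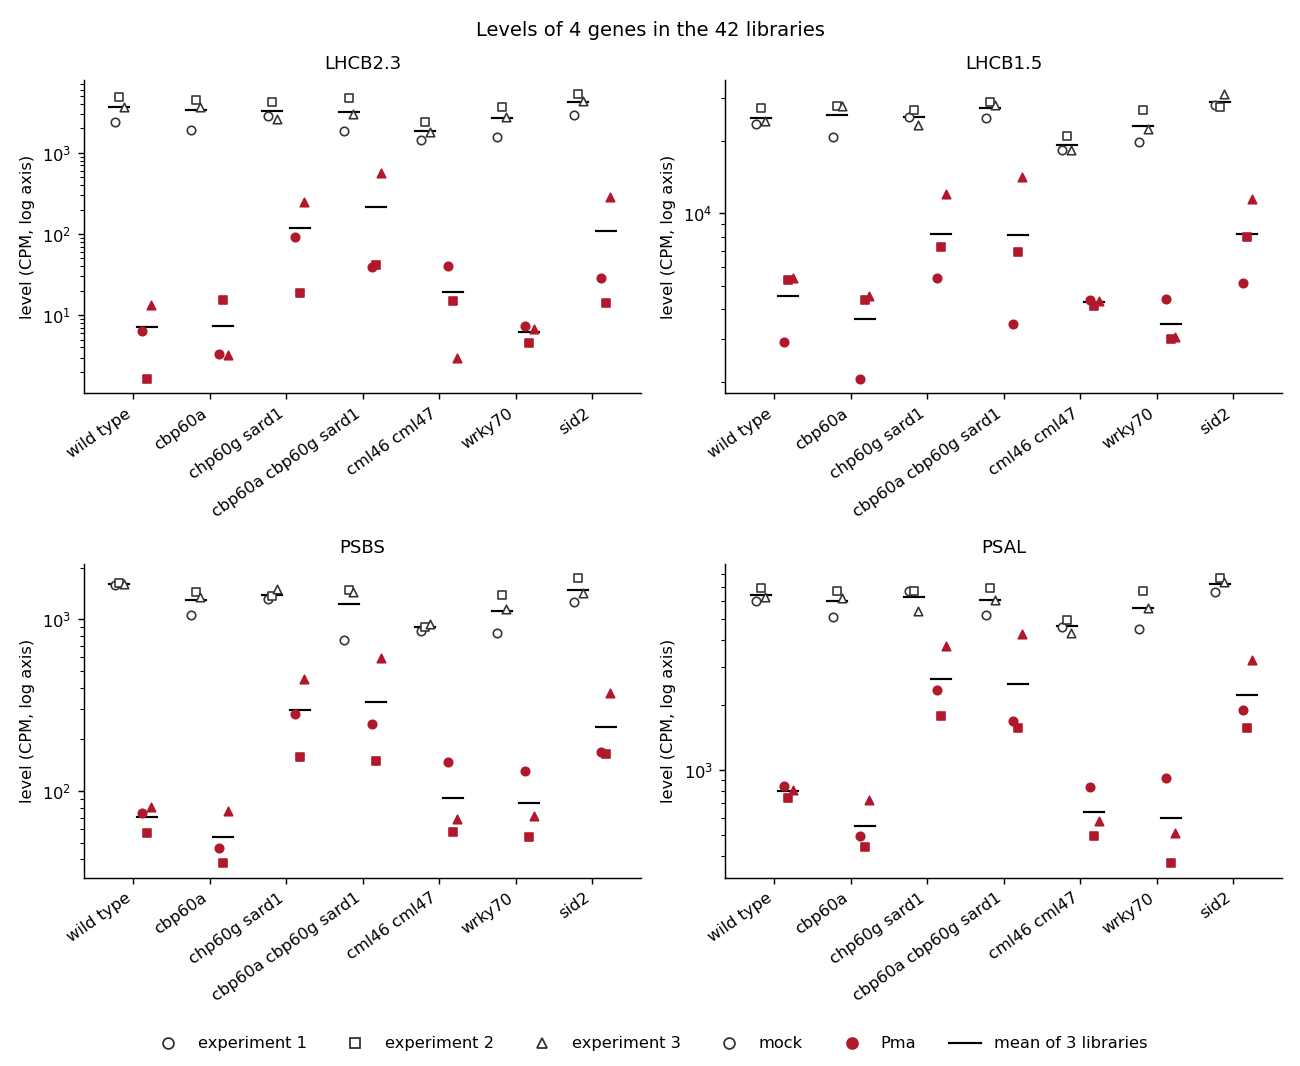
Level of LHCB2.3, LHCB1.5, PSBS and PSAL in each of the 42 libraries (CPM, log axis), by genotype and treatment, with the points of the 3 experiments marked. Mock and Pma libraries do not overlap in any genotype, and PSBS and PSAL are higher in every Pma library of chp60g sard1, the triple mutant and sid2 than in wild type.

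The size of these differences rests in part on experiment 3. The median log2 difference from wild type was 1.47, 1.09 and 2.02 in experiments 1, 2 and 3 in chp60g sard1, 0.88, 0.98 and 2.35 in the triple mutant and 0.96, 0.78 and 1.82 in sid2. Without experiment 3 the genes called numbered 7 in chp60g sard1, 0 in the triple mutant and 1 in sid2, and without experiment 2 they numbered 12, 11 and 2. Without experiment 1 the counts were 37, 39 and 29. Leaving out only the mutant's own Pma library of experiment 3 left 13, 1 and 5. For the triple mutant, leaving out the wild type Pma library of experiment 1 or 3 left 23 or 20, and for sid2 leaving out that of experiment 1, 2 or 3 left 13, 15 or 9. The summed leaf markers moved with these genes, at 2679 to 5879 CPM in chp60g sard1, 2646 to 7739 CPM in the triple mutant and 2065 to 4729.9 CPM in sid2 Pma libraries, above the 1554 to 1947 CPM of wild type. The epidermis markers were at 174 to 477, 37.2 to 475 and 55.0 to 289 CPM against 47.7 to 81.8 CPM. The phloem markers were at 638 to 766, 537 to 833 and 637 to 736 CPM against 563 to 588 CPM. The guard cell markers were at 64.4 to 81.6, 66.0 to 98.7 and 119 to 157 CPM against 112 to 149.7 CPM. They thus lay below wild type in chp60g sard1 and the triple mutant, and overlapped it in sid2. Their part in the result was not tested.

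In cbp60a, cml46 cml47 and wrky70 Pma leaves none of the 43 genes was called against wild type. Of all genes tested 0% were called in cbp60a, 0.125% in cml46 cml47 and 3.31% in wrky70. At an unadjusted p under 0.05 there were 2, 1 and 0 of the 43, and DESeq2 called 0 in each. Shares of all genes at the unadjusted threshold are not given here, so the unadjusted counts have no background beside them. In cbp60a 42 of the 43 values were below wild type, with a median log2 difference of -0.55. LHCB1.1 had the lowest p there, at 56.2, 201 and 274 CPM in experiments 1, 2 and 3 against 211, 563 and 440.3 CPM in wild type. It was lower in each experiment but the groups overlapped, and the difference was -1.28 ± 0.54 (adjusted p = 1.00). In a fit of these 2 groups alone 30 of the 43 were called lower. The share of all genes called in that fit is not given here, so this count has no background beside it. The member with the lowest p was PSBO2 in cml46 cml47 (0.75 ± 0.32, adjusted p = 0.369) and LHCA6 in wrky70 (ratio 4.74, 95% interval 1.34 to 25.5, 15 counts, against 3 counts in wild type, adjusted p = 0.285).

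Of the other photosynthesis genes, 9 of 13 of electron transport and the ATP synthase were higher and 0 lower than wild type in chp60g sard1 Pma leaves, 9 and 0 in the triple mutant and 6 and 0 in sid2. For the 22 chlorophyll synthesis genes 6 were higher and 0 lower in chp60g sard1, 4 and 0 in the triple mutant, and 2 higher and 2 lower in sid2, where the lower ones were GSA1 (-0.59 ± 0.18) and LIN2, a coproporphyrinogen oxidase (-0.97 ± 0.22). The shares of all genes tested that were called higher are 8.88%, 7.01% and 8.89% for the 3 mutants. Of the 15 insertion and assembly genes 2, 2 and 1 were higher and 1 was lower in each mutant. The lower gene, CPFTSY, for the chloroplast receptor of the signal recognition particle that inserts antenna proteins, was at -2.25 ± 0.29 (adjusted p = 3.39e-06) in chp60g sard1, -1.99 ± 0.29 (adjusted p = 2.21e-05) in the triple mutant and -2.07 ± 0.29 (adjusted p = 1.81e-05) in sid2. The regulators called were lower, HY5, a factor of light signalling (-1.77 ± 0.60) and GUN1 (-0.48 ± 0.16) in chp60g sard1 and GUN1 (-0.67 ± 0.16) in sid2. In wrky70 PYG7, a photosystem I assembly factor, was called higher by 1.39 ± 0.38 (adjusted p = 0.0335).

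Whether the fall itself differed from wild type was tested as the difference of the 2 responses. In chp60g sard1 16 of the 43 genes had a smaller fall, against 3.62% of all genes tested that were called in that direction, and these were 5 LHCB, 4 LHCA, 5 PSA and 2 PSB genes. In the triple mutant 9 had a smaller fall (2.29% of all genes), 3 LHCB, 1 LHCA, 3 PSA and 2 PSB. The median difference over the 43 genes was 1.60 and 1.67 on the log2 scale. In chp60g sard1 the lowest p were those of PSBS at 2.23 ± 0.55 (adjusted p = 0.0129), LHCA6, LHCB2.2 at 2.60 ± 0.72 (adjusted p = 0.0270) and PSAL at 1.71 ± 0.48 (adjusted p = 0.0302). In the triple mutant they were those of PSBS at 2.53 ± 0.55 (adjusted p = 0.0101), PSAN at 2.26 ± 0.60 (adjusted p = 0.0308), LHCA6 and LHCB2.3 at 4.73 ± 1.26 (adjusted p = 0.0315). By the same test 7 electron transport and ATP synthase genes of 13 had a smaller fall in each of the 2 mutants. The LHCA6 differences were 3.82 ± 1.06 (adjusted p = 0.0250) and 3.94 ± 1.06 (adjusted p = 0.0315), fitted to 3 counts in wild type Pma leaves. PSAN was at 3088, 5729 and 5819.8 CPM in mock and 376, 377 and 1637 CPM in Pma leaves of the triple mutant, the Pma library of experiment 3 being the highest. Without the experiment as a block 1 gene was called in each of the 2 mutants, and DESeq2 called 36 in each. Without experiment 1, 2 or 3 the counts were 6, 0 and 0 in both mutants, and single libraries also moved them. In chp60g sard1 leaving out the wild type mock library of experiment 1 or 2 left 2 each, the wild type Pma library of experiment 1, 2 or 3 left 1, 5 or 1, the mutant mock library left 7, 6 or 1, and the mutant Pma library of experiment 3 left 0. In the triple mutant the wild type mock library of experiment 1 or 2 left 1 each, and the wild type Pma library of experiment 1, 2 or 3 left 1, 3 or 1. Leaving out its own mock library of experiment 1, 2 or 3 gave 1, 15 or 2, and its own Pma library 34, 20 or 0. Without its Pma library of experiment 3 the differences in the triple mutant were 1.95 for PSBS, 1.401 for PSAN, 3.05 for LHCA6 and 2.80 for LHCB2.3, none of them called.

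None of the 43 genes was called for a different fall in cbp60a, cml46 cml47, wrky70 or sid2 by edgeR. Of all genes tested 0%, 0.574%, 0.112% and 1.73% were called. At an unadjusted p under 0.05 there were 0, 3, 1 and 25 of the 43, and DESeq2 called 0, 1, 0 and 1. The shares of all genes above are at the adjusted threshold. At the unadjusted threshold 866, 2514, 1886 and 2574 of the 15161 genes tested passed, in the same order. In sid2, with a median difference of 1.138, PSBS had the lowest p at 1.79 ± 0.55 (adjusted p = 0.0803). Its levels were 1262, 1731 and 1430.5 CPM in mock and 169, 165 and 371 CPM in Pma leaves of sid2. In cml46 cml47 it was PSBO2 at 1.31 ± 0.45 (adjusted p = 0.135), in wrky70 LHCA6 at 2.48 ± 1.15 (adjusted p = 0.365) and in cbp60a LHCB2.2 at -1.11 ± 0.72 (adjusted p = 1.00). The falls of sid2 and of chp60g sard1 were each compared with wild type and not with each other.

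Levels of some of the 43 genes also differed between the 3 experiments. By the joint F test over all libraries 9 of the 43 were called, a smaller share than the 43.8% of all genes tested. They were LHCB2.1, LHCB4.3, LHCB1.4, PSBY, PSBQ1, LHCB4.1, PSBX, LHCB1.1 and LHCB3. In mock leaves LHCB2.1 was at 3687 ± 609, 5500.0 ± 644 and 4610.1 ± 692 CPM in experiments 1, 2 and 3 (mean ± SD over 7 genotypes), lowest in experiment 1 (adjusted p = 0.000259). LHCB4.3 was at 42.8 ± 18.3, 29.7 ± 7.82 and 53.3 ± 10.6 CPM, lowest in experiment 2 (adjusted p = 0.000904). LHCB1.4 was at 9942 ± 1518, 9263 ± 1631 and 10106 ± 2329 CPM in mock leaves, where the experiments overlap, and its fitted level over all libraries was at a log2 difference of -1.142 in experiment 2 from experiment 1 (adjusted p = 0.0108).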

How the data were processed

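The values analysed are the whole-number read counts per locus that the authors deposited for all 42 libraries, made by Smart-3SEQ, which reads the 3′ ends of transcripts. Per the labels' protocols, reads begin with a 5-base molecular identifier and GGG, 8 bases to be trimmed. Per the submitters' processing notes, bcl2fastq 2.17.1.14, STAR 2.4.2a and the genome TAIR10 were used. How reads were counted, the gene annotation, whether strand was used and whether the molecular identifier removed copies are not given in the sources used here.

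Counts were tested with edgeR 4.0.16 in R 4.3.3 by its quasi-likelihood F test (glmQLFit with legacy = FALSE, TMM factors, filterByExpr with min.count 10 and min.total.count 15). The model for 42 libraries had 16 coefficients (14 groups, and experiment as a blocking factor) and left 26 residual degrees of freedom, with 26 comparisons and Benjamini-Hochberg adjustment over 15161 genes in each. The SE is the size of the log2 fold change over the root of its F statistic, and log2 CPM used a prior count of 2. The block follows the design, in which each experiment holds 1 library of every group. With group means taken out, deviations of libraries that share an experiment correlated at 0.372, 0.351 and 0.133 (91 pairs each). Counts of replicate libraries differed by a chi-square of 3.38 to 38.5 times its degrees of freedom over 42 pairs, so no 2 libraries of a group were the same. Libraries of different groups were not compared in this way. At low counts, intervals are exact and cover counting error only, since sequenced copies need not be independent molecules.

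The 43 genes, the lists of other genes and the alternatives were chosen with earlier results of these data known. The text names, per subgroup, the 2 genes with the most and the 2 with the least negative response averaged over 7 genotypes, up to 4 called genes of lowest adjusted p in each other comparison (or the gene with the lowest p), and from each list the 3 lowest adjusted p and genes against the majority; others are named by role. GLK1, HY5 and LIN2 fall under these last 2 clauses. Promoters and transcript ends came from RefSeq TAIR10.1, read in Python 3.11.15. Alternatives were DESeq2 1.42.0, DESeq2-type size factors in edgeR, library totals, no filter, no block, a fit of the compared groups alone, and leaving out experiments or single libraries. The test was checked on simulated data.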

Additional observations from a re-analysis of the deposited data

Results flagged for a closer look

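The difference between the Pma response of a mutant and that of wild type passed the test for several genes in 2 mutants, and these are the results to look at again. In chp60g sard1, 16 of the 43 genes had a smaller fall than in wild type, and in the triple mutant 9. By name, on the log2 scale, the difference of the responses in chp60g sard1 was 2.23 for PSBS, 3.82 for LHCA6, 2.60 for LHCB2.2 and 1.71 for PSAL. In the triple mutant it was 2.53 for PSBS, 2.26 for PSAN, 3.94 for LHCA6 and 4.73 for LHCB2.3. For LHCA6 both values rest on 3 counts in wild type Pma leaves. Both counts of genes fell to 0 without the mutant's own Pma library of experiment 3. Without that library none of these 8 values passed. In chp60g sard1 they were 1.94, 3.38, 2.19 and 1.45 in the same order, and in the triple mutant 1.95, 1.401, 3.05 and 2.80. Among the Pma libraries of each mutant PR1 was lowest in that library and ICS1 was not, and their part in the result was not tested.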

How the results depend on the processing

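The fall after Pma was called for all 43 genes in each genotype under DESeq2, other scalings, no filter, no block and a fit of the compared groups alone, except that this last fit called 34 in the triple mutant. Leaving out an experiment or a library gave 38 to 43 calls in chp60g sard1, 37 to 43 in the triple mutant and 43 in the other 5 genotypes. Mutants against wild type in Pma leaves gave 7 to 40 calls in chp60g sard1, 0 to 40 in the triple mutant, 1 to 33 in sid2, 0 to 1 in wrky70 and 0 in cbp60a and cml46 cml47, and all 6 mock comparisons gave 0. The differences of the responses gave 0 to 23 in chp60g sard1, 0 to 34 in the triple mutant, 0 to 1 in cml46 cml47 and 0 in the others. A fit of the compared groups alone called 1 gene in chp60g sard1, 40 in cml46 cml47 and 1 in sid2 in mock leaves, 30 in cbp60a and 24 in the triple mutant in Pma leaves, and 34 in chp60g sard1, 2 in the triple mutant and 2 in sid2 for the differences. Library totals gave 21 in sid2 Pma leaves, 8 and 5 for the differences in chp60g sard1 and the triple mutant, and 4 between experiments. DESeq2 gave 36 for both of these differences, 1 in cml46 cml47, 1 in sid2 and 19 between experiments, and DESeq2-type size factors gave 14 for the triple mutant difference. Without the experiment as a replicate block the differences gave 1 call in chp60g sard1 and 1 in the triple mutant, and the block changed no other count by over 1.5 times. The shares of all genes called under these alternatives are not given here, and the cause of these changes was not tested.

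Of the values of named genes under alternatives 1934 kept direction and side of the threshold, 94 lost the call and 0 reversed. Among summed levels 8 moved by more than the replicate SD, all in wild type and cbp60a under library totals. With 3 libraries a group, and 3 or 16 counts for LHCA6 and LHCB4.3 in wild type Pma leaves, the depth limits the size of their falls.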

Other observations

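Clock genes, chosen after their values were seen, differed between experiments in mock leaves. The median over 7 genotypes was 4.26, 101 and 12.9 CPM in experiments 1, 2 and 3 for LHY, 9.41, 90.7 and 19.9 CPM for CCA1 and 23.8, 4.39 and 8.84 CPM for TOC1. LHY and CCA1, which peak near dawn, were highest in experiment 2, and TOC1, which peaks in the evening, was highest in experiment 1. Sampling hours are not given in the sources used here.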
